A study of Mus musculus with 6 samples.

Results

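The CCN family was read through every probe set annotated to Ccn1, Ccn2, Ccn3, Ccn4 or Ccn5, the genes formerly called Cyr61, Ctgf, Nov, Wisp1 and Wisp2. These 5 genes, of 18194 named on the array, were read by 10 of its 45101 probe sets, and all 10 passed the filter on low signals. RNA came from hind limb skeletal muscle of 3 mice deficient in the laminin alpha 2 chain and 3 wild type mice, all 4 weeks old, each mouse on its own Affymetrix array. The laminin alpha 2 chain is the subunit of muscle laminin that anchors the fibre to its basement membrane. The allele, strain and sex of the mice are not given in the labels, and the RNA came from whole muscle, so fewer cells of a type and less RNA per cell cannot be told apart.

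CCN proteins are secreted matricellular proteins, which sit in the extracellular matrix and signal to cells rather than build its scaffold. They are assembled from an insulin-like growth factor binding type module, a von Willebrand factor type C module, a thrombospondin type 1 module and a C-terminal cysteine knot, which CCN5 lacks. They bind integrins, heparan sulfate proteoglycans and the endocytic receptor LRP1. CCN1 and CCN2 are textbook targets of the YAP and TEAD transcription factors, and CCN2 is induced by TGF-beta and is best known in muscle as a profibrotic factor.

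Signals are linear units per probe set, and array medians lay between 20 and 26.1. A log2 fold change is the deficient mean minus the wild type mean of log2(signal + 16), a scale on which dim genes appear to change less than they do. Every adjusted p of a gene is from limma over 13113 genes. As a check of the labels, Lama2 read 82.0, 31.1 and 140.4 in the deficient libraries and 428.7, 415.6 and 326.2 in the wild type libraries. Whether its probe set covers the changed stretch of the gene is not known here. Markers of muscle fibres were bright in both groups. Over 8 genes they summed to 67436, 88696 and 87374 in deficient and 89326, 87113 and 91482 in wild type libraries, with deficient replicate 1 the lowest. Of the 8 genes 0 passed by limma, and 4 were lower in deficient muscle without overlap, as were 1631 of all 13113 genes. Deficient replicate 3 and wild type replicate 3 lacked the Y-linked transcript Eif2s3y, at 9.1 and 10.7, against 414.6 to 573.7 in the other 4 libraries. Wild type replicates 1 and 2 stood apart by skin and hair follicle markers, with sums of 2175 and 1188 over 8 genes, against at most 305 in the other libraries.

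Ccn2 was the member that rose, and the other 4 did not pass the test. Its rise was 3.12-fold. That is 1 gene of 5 in the family, where 1.3% of all genes (170 of 13113) were called higher and 2.76% in either direction. Ccn1, Ccn3 and Ccn4 had positive fold changes with intervals that include 0, and Ccn5 had a fold change near 0. The plot of signals by library shows all 10 probe sets.

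**Figure D1:**
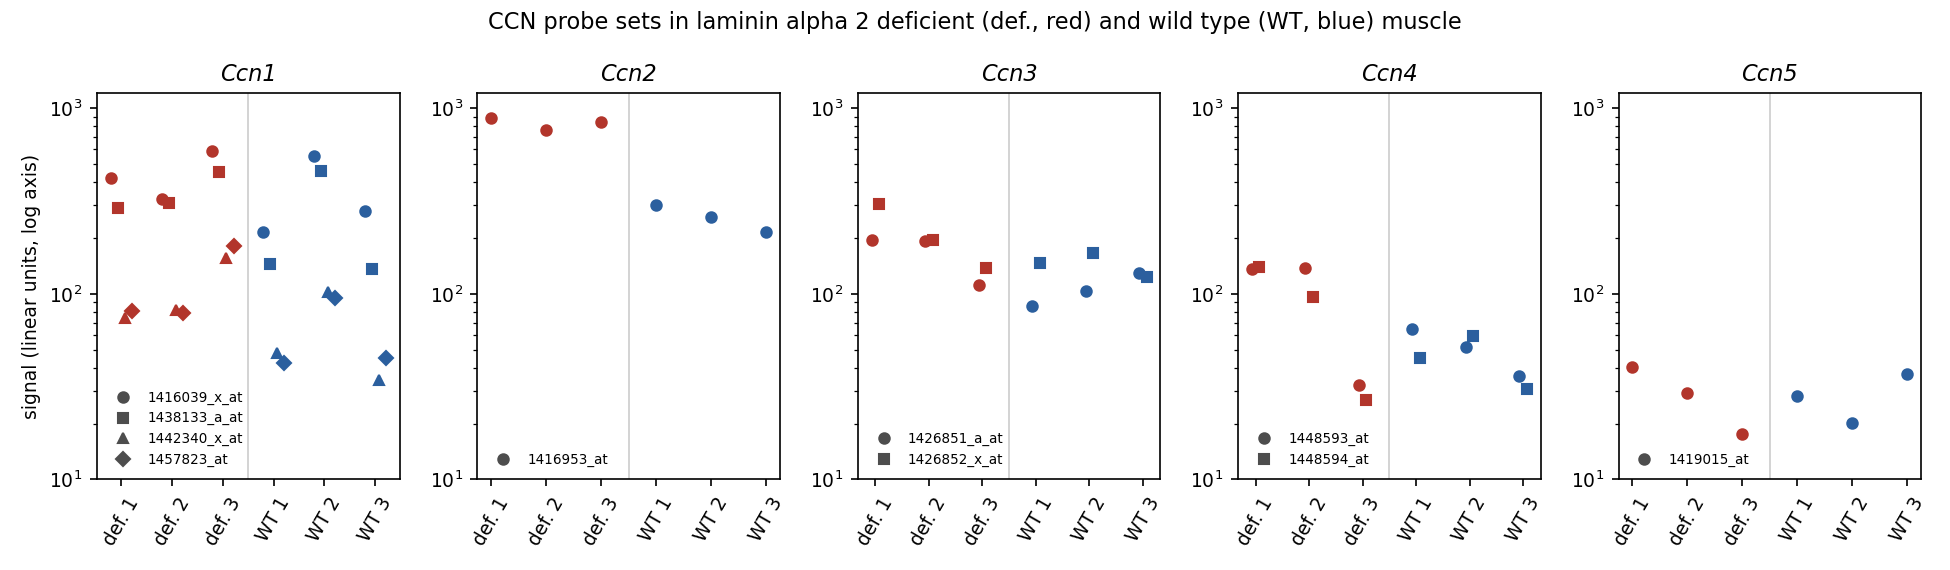
Signal of each CCN probe set (log axis, linear signal units) in the 3 deficient libraries (red, left) and the 3 wild type libraries (blue, right), with 1 marker shape per probe set. The Ccn2 points of deficient muscle (766.5 to 883.1) lie above those of wild type muscle (215.5 to 300), while every other probe set overlaps between the groups.

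Ccn2 encodes connective tissue growth factor. Its single probe set, 1416953_at, read 883.1, 766.5 and 847.3 in the deficient libraries, against 300, 257.9 and 215.5 in the wild type libraries. The groups did not overlap, which held with the deficient group higher for 12.3% of all genes tested. The lowest deficient library stood at 2.97 times the wild type mean and the highest at 3.43 times. Means were 832 ± 59.7 in deficient and 258 ± 42.3 in wild type muscle (SD, n = 3 each). The log2 fold change was 1.64 (SE 0.183, 95% interval 1.23 to 2.05, adjusted p = 0.00374), a fold of 2.35 to 4.14 by its interval. This p ranked 20 among the 13113 genes, while 66 genes had a larger log2 rise.

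The Ccn2 call held without each of the 6 libraries in turn, with an adjusted p of 0.00325 to 0.0253 and a log2 fold change of 1.53 to 1.75. Leaving out both wild type libraries with hair follicle markers gave 1.87 and ended the call (adjusted p = 0.0974). That fit, added after seeing the data, has 1 wild type library, which is assumed to vary like the deficient ones. For each control gene, the signal at the 5 prime end was set over that at the 3 prime end. For actin this ratio was 0.819, 0.51 and 0.573 in deficient and 1.15, 1.05 and 1.04 in wild type libraries. For Gapdh it was 1.15, 0.886 and 1.01 in deficient and 0.961, 1.19 and 1.14 in wild type libraries, so the groups overlapped. The ratios of pyruvate carboxylase and transferrin receptor overlapped as well. The part of these ratios in the result was not tested.

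Ccn1 encodes CYR61, a product of immediate early transcription that acts on adhesion, blood vessel growth and fibroblast senescence. Its brightest probe set, 1416039_x_at, read 422, 323.7 and 590.9 in deficient and 214, 554.3 and 280.1 in wild type libraries. Deficient replicate 3 and wild type replicate 2 were the highest libraries, so the groups overlapped. The log2 fold change was 0.41 (95% interval -0.35 to 1.16, adjusted p = 0.558). It ran from 0.13 without wild type replicate 1 to 0.78 without wild type replicate 2 (adjusted p = 0.909 and 0.275).

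The other 3 probe sets of Ccn1 showed the same pattern over the libraries. Probe set 1438133_a_at read 291.7, 309.9 and 453.8 in deficient and 145.2, 457.5 and 136 in wild type libraries. Probe set 1442340_x_at read 73.9, 82.2 and 155 in deficient and 48.2, 101.8 and 34.4 in wild type libraries. Probe set 1457823_at read 80.5, 78.8 and 180.2 in deficient and 42.6, 94.5 and 45.2 in wild type libraries. All 4 had deficient replicate 3 and wild type replicate 2 as their top libraries, and wild type replicates 1 and 3 as their lowest. The last pair was designed from one sequence record, so they are not independent readings of the gene. In a fit over 27022 probe sets, in which 1.42% were called, the log2 fold changes of these 3 were 0.67, 0.66 and 0.73 (adjusted p = 0.434, 0.386 and 0.333).

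The immediate early genes Fos and Egr1, named after their values were seen, shared the high wild type library but not the high deficient library. Fos read 1016.3, 550.7 and 107.5 in deficient and 991.6, 2316.9 and 141.2 in wild type libraries. Egr1 read 954.6, 1332.1 and 438.3 in deficient and 403.7, 1082.1 and 293.7 in wild type libraries. Both were highest among wild type libraries in replicate 2, as Ccn1 was, but lowest among deficient libraries in replicate 3, where Ccn1 was highest. Neither passed the test (adjusted p = 0.709 and 0.487).

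The promoter sequences from RefSeq matched 1 of the 5 members, Ccn1. The 250 bases before its start (GRCm38.p6, chr3:145649986-145650235, minus strand) are shown because CCN1 is known as a TEAD target. Capitals mark the TEAD motif CATTCC and the short form CGTCA of the cyclic AMP response element.
Ccn1: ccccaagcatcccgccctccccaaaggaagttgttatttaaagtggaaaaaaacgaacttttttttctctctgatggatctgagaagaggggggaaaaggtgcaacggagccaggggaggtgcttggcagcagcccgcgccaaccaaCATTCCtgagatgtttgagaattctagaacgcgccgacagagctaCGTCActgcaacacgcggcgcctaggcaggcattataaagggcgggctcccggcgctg
Both strands were searched. CATTCC began 103 bases before the start, and 12.6% of 32851 promoter windows of this length held it. CGTCA began 58 bases before the start and was held by 17.8% of windows. The AP-1 motif TGANTCA and the CArG box of serum response factor had 0 matches in this window, and they were found in 6.75% and 1.47% of all windows.

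Ccn3 encodes NOV, which opposes CCN2 in several cell systems. Its brighter probe set, 1426852_x_at, read 304.3, 194.7 and 138.1 in deficient and 147, 165.8 and 122.5 in wild type libraries. Deficient replicates 1 and 2 lay above every wild type library, and deficient replicate 3 lay among them. The log2 fold change was 0.45 (95% interval -0.16 to 1.05, adjusted p = 0.408). The other probe set, 1426851_a_at, designed from the same sequence record, read 195.4, 193.3 and 112 in deficient and 85.9, 103.6 and 129.4 in wild type libraries, with a log2 fold change of 0.56 (adjusted p = 0.32 over probe sets). Without deficient replicate 3 the change of Ccn3 was 0.70 (adjusted p = 0.125), and without deficient replicate 1 it was 0.17 (adjusted p = 0.733).

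Ccn4 encodes WISP1, which fibro-adipogenic progenitors secrete in mouse muscle and which supports muscle stem cells. Probe set 1448593_at read 136.7, 137.9 and 32.4 in deficient and 64.8, 52 and 36.1 in wild type libraries. Its second probe set, 1448594_at, read 139.2, 96.2 and 26.7 in deficient and 45.1, 59.5 and 30.8 in wild type libraries. On both, deficient replicates 1 and 2 were the highest of the 6 libraries and deficient replicate 3 was the lowest. The log2 fold change of the brighter probe set, 1448593_at, was 0.66 (95% interval -0.27 to 1.60, adjusted p = 0.428) and did not pass the test. That of 1448594_at was 0.59 (adjusted p = 0.523 over probe sets).

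Deficient replicate 3 decided this value. Without it, Ccn4 had a log2 fold change of 1.22 (95% interval 0.68 to 1.75) and passed the test (adjusted p = 0.0229), where 665 genes were called in place of 362. This call rests on the brighter probe set. The second probe set, 1448594_at, was called in 0 of 18 fits over probe sets, the one without deficient replicate 3 included. In a fit that blocked on Y-linked transcripts, added after seeing the data, Ccn4 stayed at 0.66 (95% interval 0.09 to 1.23) and missed the threshold (adjusted p = 0.142). The libraries without Y-linked transcripts were the lowest of their groups for Ccn4.

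Several marker sums moved with Ccn3 or Ccn4 across the deficient libraries. The 7 macrophage markers summed to 5580, 3728 and 2361 in deficient and 2234, 1721 and 1557 in wild type libraries, so the groups did not overlap. The 7 tendon markers summed to 7181, 7074 and 3230 in deficient and 3963, 4372 and 3066 in wild type libraries. For tendon markers, too, deficient replicates 1 and 2 were above all others and replicate 3 lay among the wild type libraries. Of each list 1 of 7 rose, which were the macrophage gene Mpeg1 (adjusted p = 0.0023) and the tendon matrix gene Thbs4 (adjusted p = 0.0119). Over all genes tested, 1.3% were called higher. The call of Thbs4 was lost without wild type replicate 1 (adjusted p = 0.0596) and without deficient replicate 2 (0.0662). Of the 7 tendon markers 4 had negative fold changes, and the median of the list was -0.16 on the log2 scale. Without Thbs4, an alternative chosen after seeing the data, they summed to 3470, 3468 and 1189 in deficient and 3093, 3282 and 2442 in wild type libraries. Deficient replicate 3 then lay below every wild type library, as it did for Ccn4. No marker of either list was at 0 in any library.

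The 4 white adipocyte markers summed to 6365, 6346 and 2257 in deficient and 4778, 3563 and 5226 in wild type libraries, and 0 of them passed by limma, with 1 at an unadjusted p under 0.05. Here too deficient replicates 1 and 2 were the highest of the 6 libraries and deficient replicate 3 the lowest. The 5 brown adipocyte markers summed to 5382, 6705 and 5730 in deficient and 9794, 7982 and 9869 in wild type libraries. These sums were lower in deficient muscle without overlap, but they mainly read 1 gene, Cox8b, and are no measure of brown fat content. Cox8b read 4858.3, 6147.8 and 5265.3 in deficient and 7780, 6996.4 and 7223.5 in wild type libraries, and did not pass (adjusted p = 0.111). Of the 5 genes 1 rose (Dio2) and 2 fell (Ucp1 and Cidea), where 2.76% of all genes tested were called in either direction. The 7 fibroblast markers summed to 31456, 35329 and 26223 in deficient and 30367, 33284 and 19922 in wild type libraries. Replicate 3 was thus the lowest library of each group, as it was for Ccn4. Of the 7 genes 0 passed by limma and 2 had an unadjusted p under 0.05, which 18.9% of all genes had (2476 of 13113). The 4 Schwann cell markers summed to 4657, 3636 and 3591 in deficient and 3910, 2251 and 3493 in wild type libraries. Endothelial marker sums were 1688, 1494 and 2105 in deficient and 2506, 2260 and 1694 in wild type libraries. Smooth muscle and pericyte sums were 6374, 7809 and 7259 in deficient and 8480, 8366 and 7138 in wild type libraries. In neither the endothelial nor the smooth muscle and pericyte sums was replicate 3 the lowest deficient library. The part of these cell types in the CCN signals was not tested.

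**Figure D2:**
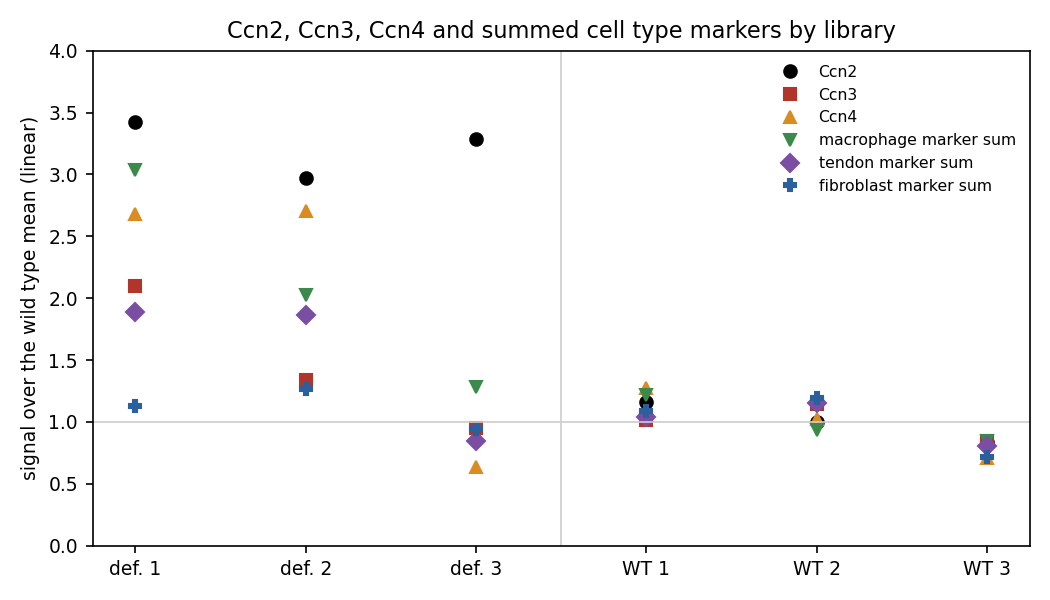
Signal over the wild type mean (linear) of Ccn2, Ccn3 and Ccn4, by their brightest probe sets, and of the macrophage, tendon and fibroblast marker sums, in each deficient library (left) and wild type library (right). Ccn2 lies between 2.97 and 3.43 in all 3 deficient libraries, while Ccn3 and Ccn4 in deficient replicate 3 lie at 0.952 and 0.636, below the wild type mean.

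Ccn5 encodes WISP2, which is known for growth arrest and, in mouse heart, for opposing fibrosis. Its probe set, 1419015_at, was dim and read 40.6, 29.2 and 17.6 in deficient and 28.1, 20.1 and 36.8 in wild type libraries. The groups overlapped, with a log2 fold change of 0.01 (95% interval -0.61 to 0.63, adjusted p = 0.99). The interval spans folds of 0.657 to 1.54 on this scale, and the sign turned in 6 alternative fits. The probe set of Ccn6, the remaining gene of the family, was dimmer still, at 1.1 to 16.3 in deficient and 5.4 to 22.5 in wild type muscle, and did not pass the filter.

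**Figure D3:**
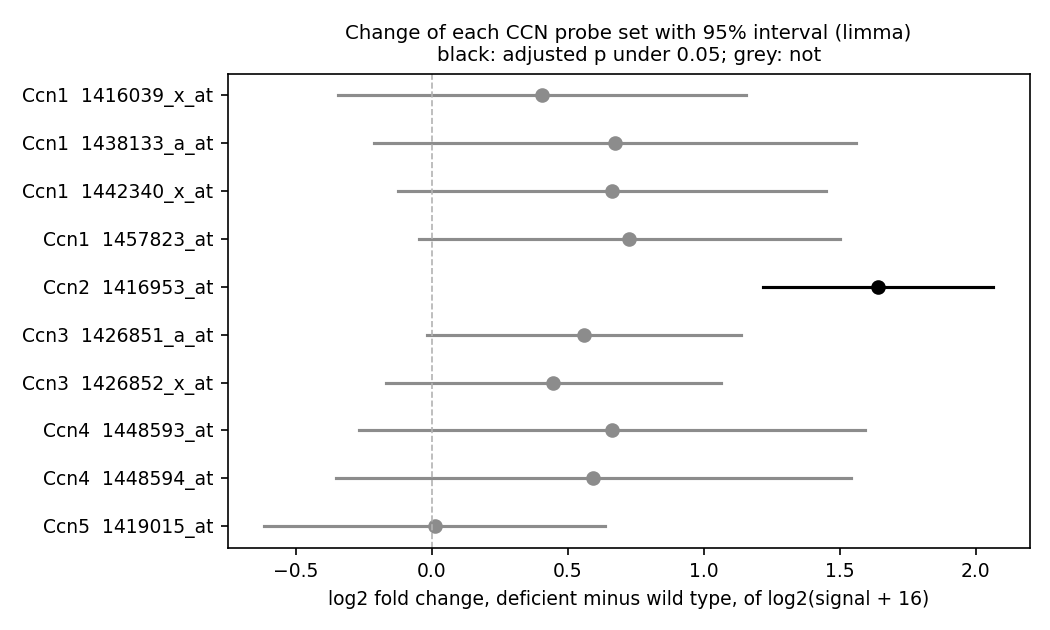
Log2 fold change of each CCN probe set, deficient minus wild type on the log2(signal + 16) scale, with its 95% interval from limma over 27022 probe sets. The interval of Ccn2 (1.22 to 2.06) is the only one of the 10 that lies above 0.

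Whether the change of Ccn2 differed from that of each other member was tested over the libraries. Ccn2 was the member called in these same data. The change of Ccn2 minus that of Ccn1, Ccn3, Ccn4 and Ccn5 was 1.23, 1.19, 0.98 and 1.63 on the log2 scale. Each had an exact permutation p of 0.1 (two-sided, 20 arrangements of the labels), which is the smallest that 3 against 3 libraries allow, and the p adjusted over the 4 comparisons was 0.1 as well.

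Genes around the family were read from lists of receptors, regulators and targets. CCN proteins bind integrins and LRP1 on the cell surface, and of 15 receptor and co-receptor genes tested, 1 rose, 0 fell and 14 did not pass. Of all genes tested, 1.3% were called higher. The median log2 fold change of the 15 was 0.43, against 0.02 over all genes tested. In the fit that blocked on Y-linked transcripts, 4 of the 15 rose, where 1160 of all 13113 genes were called, 550 of them higher. The gene that rose was Lrp1, with 599.2, 635.1 and 522.2 in deficient and 320.8, 323.3 and 285.9 in wild type libraries (log2 fold change 0.88, SE 0.171, adjusted p = 0.0316). This call was lost under median centring (0.0698), in a fit without the intensity trend (0.0594), and without wild type replicate 1, 2 or 3 or deficient replicate 1 or 2 (adjusted p = 0.0771 to 0.123). Itga5, the fibronectin receptor subunit, read 102.1, 77.3 and 87.6 in deficient and 53.9, 38.3 and 26.8 in wild type libraries, without overlap but with an adjusted p of 0.0689.

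YAP and TAZ are coactivators that enter the nucleus when the Hippo kinases are inactive and bind TEAD factors on target genes. Of 18 genes of this pathway, 0 passed by limma, and 4 had an unadjusted p under 0.05, against 18.9% of all genes. The median log2 fold change was 0.23, and 0.13 without deficient replicate 3. With the Y-linked block 1 of the 18 rose, where 550 of all 13113 genes were called higher. Yap1 read 449.9, 513 and 767.9 in deficient and 404.9, 332.5 and 350 in wild type libraries (adjusted p = 0.174). Amot, which encodes the YAP-binding protein angiomotin, averaged 1159 ± 320 in deficient and 655 ± 62.9 in wild type muscle (SD, n = 3 each, adjusted p = 0.0873). Groups did not overlap for either gene, but the change of Amot turned to -0.048 when all its probe sets were averaged.

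Of 18 YAP and TEAD target genes other than CCN genes, 3 rose, 0 fell and 15 did not pass. Of all genes tested, 1.3% were called higher. The median log2 fold change of the 18 was 0.21, against 0.02 over all genes tested. The list median ran from 0.13 without wild type replicate 3 to 0.39 without deficient replicate 2, and 1 gene rose in either fit. In both of these fits 19 genes of the list passed the filter, so the medians are not over the same 18 genes. With the Y-linked block 4 of the 18 rose, where 550 of all 13113 genes were called higher. Ankrd1, a muscle ankyrin repeat gene that stretch induces, read 585.8, 573.4 and 454.1 in deficient and 44.3, 53.9 and 28.9 in wild type libraries. Its log2 fold change of 3.26 (SE 0.221, adjusted p = 4.20e-04) kept its call in all 18 alternative fits. Without deficient replicate 2 or 3 another probe set of Ankrd1 was the brightest, and the change was 2.49 and 2.53. Igfbp3, which encodes a carrier of insulin-like growth factors, read 553.7, 395.9 and 1041 in deficient and 225.3, 164.6 and 246.8 in wild type libraries (log2 fold change 1.48, adjusted p = 0.045). Rbms3, which encodes an RNA-binding protein, read 401.7, 588.9 and 426.5 in deficient and 218.5, 216.8 and 208.3 in wild type libraries (log2 fold change 1.06, adjusted p = 0.026). For both genes every deficient library was above every wild type library. The call of Igfbp3 was lost without wild type replicate 1, 2 or 3 or deficient replicate 1 or 2 (adjusted p = 0.0558 to 0.169) and under median centring and quantile normalization, and it stood in 8 of 19 fits. That of Rbms3 was lost without wild type replicate 1, 2 or 3 or deficient replicate 2 (adjusted p = 0.07 to 0.113), and when its probe sets were averaged (0.202), and it stood in 13 of 19 fits.

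**Figure D4:**
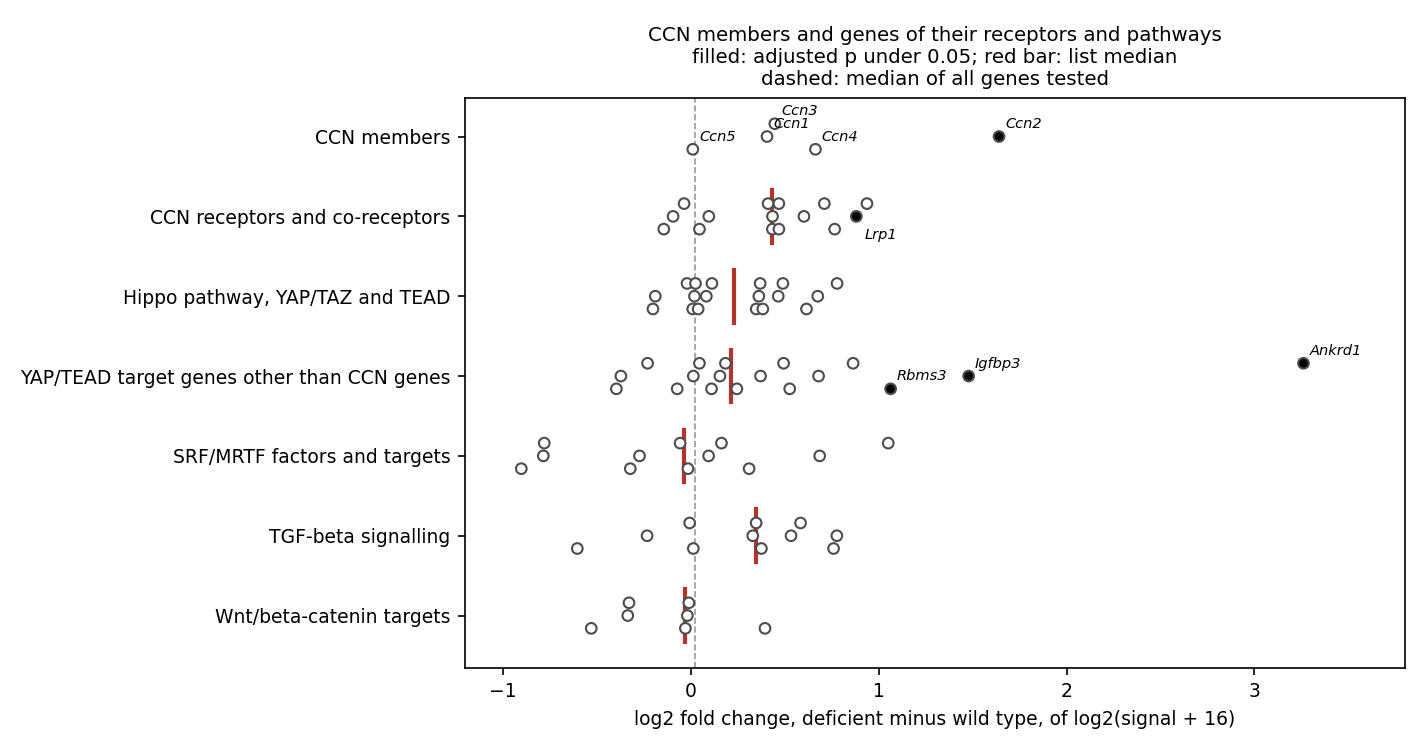
Log2 fold changes (deficient minus wild type, log2(signal + 16) scale) of the 5 CCN members and of the tested genes of 6 lists, 1 point per gene, filled where the adjusted p is under 0.05. Ccn2 at 1.64 is the filled point among the members, and Lrp1, Ankrd1, Igfbp3 and Rbms3 are the filled points among the lists.

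TGF-beta induces CCN2 through SMAD proteins in many cell types. Of 11 genes of TGF-beta signalling, which share Tgfb2 with the YAP target list, 0 passed by limma, and 4 had an unadjusted p under 0.05, against 18.9% of all genes. The median log2 fold change was 0.35, but 0.22 without deficient replicate 1 and 0.030 with all probe sets averaged, where 6 of 11 were positive. With the Y-linked block 3 of these genes rose and 1 fell, where 1160 of all 13113 genes were called. Without deficient replicate 3, where 665 genes were called, 1 rose. The receptor gene Tgfbr1 averaged 546 ± 20.6 in deficient and 359 ± 24 in wild type muscle (adjusted p = 0.0935), while averaging its probe sets turned its change to -0.16. Smad3, a signal transducer below that receptor, averaged 361 ± 23.7 in deficient and 559 ± 63.1 in wild type muscle (SD, n = 3 each, adjusted p = 0.0997). For both genes the groups did not overlap on the brightest probe set.

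Serum response factor and its MRTF coactivators respond to actin dynamics and act on Ccn1 and Ccn2 promoters in cultured cells. Of 12 genes of this list, 0 passed by limma, and 3 had an unadjusted p under 0.05, against 18.9% of all genes. Their median log2 fold change was -0.036 and had no stable sign. It ran from -0.21 without wild type replicate 3 to 0.10 without wild type replicate 2, was 0.058 and 0.039 without deficient replicate 2 or 3, and was 0.47 without wild type replicates 1 and 2. Under quantile normalization it was 0.0050. With the Y-linked block 1 gene rose and 2 fell, where 1160 of all 13113 genes were called. Fhl2, an LIM domain cofactor gene, averaged 128 ± 19.4 in deficient and 55.6 ± 23.3 in wild type muscle (adjusted p = 0.0692). Mrtfa averaged 206 ± 87.9 in deficient and 349 ± 60.5 in wild type muscle (SD, n = 3 each, adjusted p = 0.187).

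Ccn4 and Ccn5 take their older names from induction by WNT1. Of 7 Wnt and beta-catenin target genes tested, 0 passed by limma, 0 had an unadjusted p under 0.05, and the median log2 fold change was -0.029. Leaving out each library in turn gave medians of -0.22 to -0.11, and the 9 genes kept with no filter gave -0.33. With the Y-linked block 0 of the 7 passed as well. The smallest p values were those of Nkd1, an inhibitor of Wnt signalling, and Myc (adjusted p = 0.438 and 0.535).

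The genes most like each member over the 6 libraries were ranked by Pearson's r on the log2 scale among 12527 genes. With so few libraries in 2 groups these values are descriptions, and the nearest gene had an r of at least 0.97 for every member. Nearest to Ccn2 were Klf5, a Kruppel-like transcription factor gene (r = 0.997), Cttn, which encodes the actin-binding protein cortactin (0.997), and Plekho1 (0.993). Since Ccn2 separated the groups, genes chosen by likeness to it tend to separate them too, so their p values are no separate support. Cttn read 880, 852.7 and 901.6 in deficient and 584.3, 566.8 and 501 in wild type libraries, and did not pass (adjusted p = 0.0626). Klf5 read 205.4, 181.7 and 195 in deficient and 83.6, 77.7 and 72.4 in wild type libraries (adjusted p = 0.0135). Its call was lost without wild type replicate 1 or 2 or deficient replicate 2 (adjusted p = 0.0554 to 0.0625), and when its probe sets were averaged (0.215). Plekho1 read 243.4, 214.6 and 216.7 in deficient and 87.5, 93.7 and 71.1 in wild type libraries (adjusted p = 0.0111), a call lost without wild type replicate 1 (0.0573) and deficient replicate 2 (0.0529).

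Nearest to Ccn4 were Ywhaq, a 14-3-3 protein gene (r = 0.998), Rgs10, a regulator of G protein signalling (0.996), and Cd74, the invariant chain of MHC class II (0.995). Cd74 read 1311.2, 1246.9 and 526.4 in deficient and 784.2, 621.2 and 532 in wild type libraries, again with deficient replicate 3 as the lowest library. Nearest to Ccn3 were Nip7, Slco2a1 and Scara3 (r = 0.995, 0.993 and 0.99). Nearest to Ccn1 were Tbc1d23, Fbxo30 and Zfp148 (0.97, 0.969 and 0.969), and nearest to Ccn5 were Rps6kc1, Kars and Il21r (0.985, 0.98 and 0.973).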

How the data were processed

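Hind limb muscle RNA of 6 mice was labelled from 1 ug each and hybridized to Affymetrix arrays, per the labels' protocols. Each deposited value is a linear intensity for 1 probe set on 1 array, already scaled by the authors, since the mean of each array without its lowest and highest 2% was 99.96 or 99.97. The sources used here do not name the summarization algorithm. Groups and replicate numbers came from sample titles.

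Probe sets were named through the platform annotation, updated by Entrez identifier to RefSeq symbols of GRCm38.p6. Probe sets below the 40th percentile of the mean (a signal of 13.9) were dropped, and the brightest remaining probe set with a single symbol stood for its gene. limma 3.58.1 tested the groups (R 4.3.3 and the data.table package, version 1.17.8), with an intensity trend, two-sided, and Benjamini-Hochberg adjustment at 0.05 over 13113 genes or 27022 probe sets. Array medians differed by at most 0.226 on the log2 scale, so no further normalization was applied.

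On 20 simulated data sets of the 13113 genes, 47.7% of 2-fold and 98.6% of 4-fold changes were recovered, and 7.15% of calls were unchanged genes. The simulated noise was independent between genes and libraries, with 200 changed genes. Differences between libraries such as the hair follicle markers and Y-linked transcripts were not in it. The number of arrays limits the precision. Members and lists were chosen with earlier results of these data known. The named genes were all members, Lama2, the called genes of each pathway list (or up to 2 with the smallest p where fewer were called), and the 3 genes most like each member, skipping predicted genes. Others were chosen after their values were seen. Alternatives were other pseudocounts, filters, normalizations, priors, averaging of probe sets, a replicate block and each library left out. Each fit set the filter anew and, except when averaging, picked the brightest probe set anew. A gene could thus be read by another probe set.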

Additional observations from a re-analysis of the deposited data

How the results depend on the processing

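Ccn2 stayed positive in all 18 alternative fits, from 1.48 to 1.87 on the log2 scale (adjusted p = 3.98e-04 to 0.0974), and lost its call only in the fit without wild type replicates 1 and 2, at 1.87. Ccn1, Ccn3 and Ccn4 stayed positive in all 18 as well, and among them the one call was that of Ccn4 without deficient replicate 3, by its brighter probe set. With 1 library left out, Ccn4 ran from 0.38 to 1.22 and Ccn5 from -0.17 to 0.21. Ccn5 was -0.032 under median centring, -0.062 under quantile normalization and -0.26 without wild type replicates 1 and 2.

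Of the 362 genes called, the count was 214 with no filter, 171 with no trend, 65 to 665 with 1 library left out, 1160 with Y-linked transcripts as a block and 19 without wild type replicates 1 and 2. The count of 385 probe sets was 223, 253 and 93 with no filter, median centring and no trend, 45 to 681 with 1 library left out, 1253 with the Y-linked block and 19 without those libraries. Median centring called 250 genes, 101 of them higher, against 170 higher of 362. The replicate numbers share no stated litter or batch, and deviations of same-numbered libraries correlated at 0.15, 0.068 and 0.301, and not every library correlated best with its own number, so they were not taken as pairs. The fit with the number as a replicate block called 864 genes and 942 probe sets, left Ccn2 called at 1.64 and called no other member. Fits with a library left out had fewer libraries, and those with no filter tested more features. The cause of these shifts was not tested.

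Signs turned for Amot (-0.048) and Tgfbr1 (-0.16) with all probe sets averaged, for Nkd1 (0.31) and Fos (1.41) without wild type replicates 1 and 2, and for Kars under centring (-0.0011) and without those libraries (-0.13). With 1 library left out, signs also turned within the ranges of Fos (-1.88 to 0.092), Fbxo30 (-0.11 to 0.83), Il21r (-0.30 to 0.11), Kars (-0.054 to 0.18) and Rps6kc1 (-0.15 to 0.10). The value of -0.11 for Fbxo30, without deficient replicate 3, came from another probe set, which was the brightest in that fit. It is therefore not an effect of that library alone. Lama2 lost its call without wild type replicate 1 or 2 or deficient replicate 1 (adjusted p = 0.101, 0.0822 and 0.0585). Signals near the array median, as for Ccn5, limit what can be resolved.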
